A study of Homo sapiens with 6 samples.

Results

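BRCA1 and 8 further genes of double-strand break repair were followed across 3 human cell lines by RNA sequencing. The 9 genes (BRCA1, BRCA2, BARD1, PALB2, RAD51C, ATM, TP53BP1, PARP1 and BRIP1) were chosen by gene symbol, and they are 9 of the 23340 named genes in the tables. All 9 passed the filter on low values, as did 15638 genes in all. The lines were MCF10A, a non-tumorigenic mammary epithelial line grown with EGF, hydrocortisone, cholera toxin and insulin, HT-29, a colorectal adenocarcinoma line, and MDA-MB-436, a breast adenocarcinoma line, the latter 2 grown with fetal bovine serum. HT-29 carries a label of 200 U per ml IFN-γ, given over 24 hours, and no IFN-γ is recorded for the other lines. No line is recorded both with and without IFN-γ, so line and IFN-γ treatment cannot be told apart in these data. MDA-MB-436 is known as a BRCA1-mutant line. The tables hold read counts per gene and no sequence variants, so the mutation itself was not examined. Each line had 2 libraries, 1 labelled 25M reads and 1 deeper, and nothing in the labels says that they came from separate cultures. P-values therefore reflect only how these libraries varied, a spread that may be technical.

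Homologous recombination repairs a broken chromosome by copying the intact sister. ATM, a kinase, senses the break and phosphorylates repair factors. BRCA1 works as a heterodimer with BARD1, favours the trimming of the broken ends, and binds PALB2, which brings in BRCA2. BRCA2 acts on the single-stranded DNA so exposed, where strand exchange with the sister begins. RAD51C works alongside it at this step, and BRIP1 is a helicase bound by BRCA1. TP53BP1 protects broken ends from trimming and so opposes BRCA1. PARP1 marks DNA nicks and breaks with poly(ADP-ribose), and cells without working BRCA1 or BRCA2 are known to be sensitive to its inhibition.

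The HT-29-labelled and the MDA-MB-436-labelled libraries went against their labels, and all that follows names groups by label. KRT20, an intestinal keratin, stood at 29899.7 and 30879.7 normalised counts (reads scaled by 1 factor per library) in the MDA-MB-436-labelled libraries, at 0 and 0.547 in the HT-29-labelled libraries and at 0 and 1.47 in MCF10A. VIL1, which encodes villin of the intestinal brush border, had 4566 reads in the MDA-MB-436-labelled libraries and 0 in the HT-29-labelled libraries. VIM, a mesenchymal intermediate filament, stood at 16.5 and 7.39 in the MDA-MB-436-labelled libraries and at 36599 and 35267 in the HT-29-labelled libraries. The summed level of 5 IFN-γ response genes was 163191 and 162532 in the MDA-MB-436-labelled libraries, 4406 and 4335 in the HT-29-labelled libraries and 531.8 and 549.4 in MCF10A. RB1, the retinoblastoma tumour suppressor, was low in the HT-29-labelled libraries, at 223.5 and 235.3, against 4930.4 and 4863 in the MDA-MB-436-labelled libraries. The basal markers KRT5, KRT14 and TP63 summed to 652506 and 638161 in MCF10A, as its label gives it. Exchanging the labels of these 2 groups would leave each value below as it is and swap the group names. The recorded IFN-γ treatment would move with the names. Totals ran from 16.7 to 69.5M reads per library.

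Regulatory sequence was taken from RefSeq (GRCh38.p14), in which all 9 genes had at least 1 annotated start. The 250 bases before the start are shown for BRCA1, for BRCA2, which shared with BRCA1 its highest level in the MDA-MB-436-labelled libraries, and for PARP1, which spanned the widest range. They are written 5′ to 3′ on the strand of the gene. Capitals mark matches to the searched words, which are a CCAAT box in BRCA1, an ETS word in BRCA2 and Sp1 GC boxes in PARP1, the last 2 kinds written as the reverse complement because they match on the other strand.
BRCA1 (chr17:43125365-43125614, minus strand): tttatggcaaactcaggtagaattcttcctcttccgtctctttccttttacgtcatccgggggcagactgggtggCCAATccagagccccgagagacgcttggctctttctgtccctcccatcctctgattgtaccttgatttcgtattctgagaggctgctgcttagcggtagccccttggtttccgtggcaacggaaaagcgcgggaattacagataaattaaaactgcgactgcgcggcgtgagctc
BRCA2 (chr13:32315258-32315507, plus strand): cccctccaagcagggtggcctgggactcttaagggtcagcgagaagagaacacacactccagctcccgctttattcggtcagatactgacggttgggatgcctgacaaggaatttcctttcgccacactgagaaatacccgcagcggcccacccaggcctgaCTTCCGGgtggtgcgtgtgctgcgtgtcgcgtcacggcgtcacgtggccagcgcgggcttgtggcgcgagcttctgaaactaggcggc
PARP1 (chr1:226408094-226408343, minus strand): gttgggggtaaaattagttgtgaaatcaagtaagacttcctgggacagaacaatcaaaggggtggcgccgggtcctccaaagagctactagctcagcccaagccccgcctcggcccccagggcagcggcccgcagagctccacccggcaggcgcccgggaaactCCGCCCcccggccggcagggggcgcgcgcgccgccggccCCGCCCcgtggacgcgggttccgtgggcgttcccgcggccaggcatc

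The words were searched on both strands, counting a gene once if any of its starts had a match, and none of the capitals overlap. CCAAT, the NF-Y word, was found before the start of 5 of the 9 genes (ATM, BRCA1, BRIP1, PALB2 and TP53BP1) and of 32.0% of 35116 RefSeq starts. In the BRCA1 window shown it begins 175 bases before the start, and the window of a second, distal BRCA1 start holds a GC box instead. GGGCGG, the Sp1 word, was found in 5 genes (BARD1, BRCA1, BRIP1, PARP1 and TP53BP1) and 42.6% of all starts, with 5 copies before BARD1. CCGGAAG, an ETS word, was found in 4 genes (ATM, BRCA2, PALB2 and TP53BP1) and 8.52% of all starts. TGACGTCA, the cAMP response element, was found before RAD51C alone among the 9 and before 1.65% of all starts. None of the 9 held the E2F words TTTGGCGC, TTTCCCGC, TTTCGCGC or TTTGCCGC (2.79% of all starts). The share of G and C ran from 52.4% before BRCA1 to 75.2% before BARD1, against a median of 58% over all starts. A match describes the letters only.

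BRCA1 message was highest in the MDA-MB-436-labelled libraries and lowest in the HT-29-labelled libraries. Its normalised count was 1779 and 1773 in the MCF10A libraries, 1089 and 1097 in the HT-29-labelled libraries, and 2423 and 2393 in the MDA-MB-436-labelled libraries. No libraries of different lines overlapped, and the largest coefficient of variation within a line was 0.888%. Means were 1776 ± 3.97, 1093 ± 5.27 and 2408 ± 21.4 (SD, n = 2 libraries each). The HT-29-labelled libraries were 2.20-fold below the MDA-MB-436-labelled libraries (log2 fold change -1.14, SE 0.033, limma adjusted p = 1.69e-08). Against MCF10A the MDA-MB-436-labelled libraries were 1.36-fold higher (adjusted p = 5.12e-06) and the HT-29-labelled libraries 1.63-fold lower (adjusted p = 3.45e-07), both under the 2-fold threshold. With scaling by library size alone the log2 fold change between the HT-29-labelled and the MDA-MB-436-labelled libraries was -0.81, which ended that call. The HT-29-labelled libraries, lowest in BRCA1, are those with high VIM and no KRT20 signal above 1 read, so the place of BRCA1 among the named lines depends on the labels.

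BARD1, the obligate partner of BRCA1, did not share this order. It stood at 320.2 and 358.4 in MCF10A, 421.5 and 450.3 in the HT-29-labelled libraries, and 306.7 and 267.3 in the MDA-MB-436-labelled libraries. It was thus highest where BRCA1 was lowest, and the libraries of the lines did not overlap. BARD1 was 1.52-fold higher in the HT-29-labelled libraries than in the MDA-MB-436-labelled libraries (log2 fold change 0.60, adjusted p = 5.44e-04) and stayed under 2-fold in every comparison. It had the fewest reads of the 9, from 149 in the 25M library labelled MDA-MB-436, where counting error alone is 8.19%.

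BRIP1, the BRCA1-bound helicase, had the order of BARD1. It stood at 589.9 and 598.0 in MCF10A, 682.5 and 727.2 in the HT-29-labelled libraries, and 490.0 and 477.9 in the MDA-MB-436-labelled libraries. All its differences were under 2-fold, the largest being 1.46-fold between the groups other than MCF10A (adjusted p = 4.15e-05). PALB2, the bridge between BRCA1 and BRCA2, varied least of the 9, with the highest line 1.25-fold over the lowest. It stood at 1099 and 1054 in MCF10A, 1062 and 1044 in the HT-29-labelled libraries, and 862.6 and 866.0 in the MDA-MB-436-labelled libraries. MCF10A and the HT-29-labelled libraries overlapped for PALB2, and their log2 difference was -0.03 with a 95% interval of -0.13 to 0.07 (adjusted p = 0.516). Scaling by library size alone gave 0.28 for that difference.

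BRCA2, the partner of PALB2, was highest in the MDA-MB-436-labelled libraries. It stood at 788.4 and 957.9 in MCF10A, 738.0 and 822.9 in the HT-29-labelled libraries, and 1748 and 1649 in the MDA-MB-436-labelled libraries. MCF10A and the HT-29-labelled libraries overlapped (log2 difference -0.16, 95% interval -0.38 to 0.07, adjusted p = 0.158). The HT-29-labelled libraries were 2.18-fold below the MDA-MB-436-labelled libraries (log2 fold change -1.12, SE 0.095, adjusted p = 9.86e-06), a call that ended with scaling by library size alone (-0.80). Against MCF10A the MDA-MB-436-labelled libraries were 1.95-fold higher, just under the threshold (log2 fold change 0.97, adjusted p = 2.71e-05). Without the deeper MCF10A library that value was 1.11, and without the deeper of those labelled MDA-MB-436 it was 1.01, and both passed. The MCF10A libraries differed most here, with a coefficient of variation of 13.7%, the largest of the 27 gene and line pairs.

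RAD51C, which acts beside BRCA2, fell in the MDA-MB-436-labelled libraries. It stood at 932.5 and 930.9 in MCF10A, 685.5 and 657.1 in the HT-29-labelled libraries, and 378.8 and 407.7 in the MDA-MB-436-labelled libraries, with no overlap between lines. The MDA-MB-436-labelled libraries were 2.37-fold below MCF10A (log2 fold change -1.24, SE 0.059, adjusted p = 2.91e-07). The HT-29-labelled libraries lay between, 1.39-fold below MCF10A and 1.71-fold above the MDA-MB-436-labelled libraries (log2 fold change 0.77, adjusted p = 5.26e-06). With scaling by library size alone this last value was 1.10 and passed.

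ATM, the break-sensing kinase, was lower in both groups labelled as carcinoma lines. It stood at 2255 and 2255 in MCF10A, 847.6 and 931.8 in the HT-29-labelled libraries, and 951.1 and 900.5 in the MDA-MB-436-labelled libraries. These 2 groups overlapped and both lay under MCF10A. ATM fell 2.53-fold in the HT-29-labelled libraries (log2 fold change -1.34, SE 0.055, adjusted p = 1.55e-07) and 2.44-fold in the MDA-MB-436-labelled libraries (-1.28, adjusted p = 1.59e-07). Between these 2 groups the log2 difference was -0.06 with a 95% interval of -0.19 to 0.07 (adjusted p = 0.345). The SD of 0.620 in MCF10A is below counting error, which was 2.88% of the 1204 reads in its 25M library.

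TP53BP1, which shields broken ends, rose in both groups in which ATM fell. It stood at 1447.5 and 1565 in MCF10A, 3992 and 4057 in the HT-29-labelled libraries, and 3339 and 3303 in the MDA-MB-436-labelled libraries. Every library of these 2 groups was above both MCF10A libraries. TP53BP1 rose 2.67-fold in the HT-29-labelled libraries (log2 fold change 1.42, SE 0.041, adjusted p = 2.38e-08) and 2.20-fold in the MDA-MB-436-labelled libraries (1.14, adjusted p = 5.69e-08). These 2 groups differed by 1.21-fold (adjusted p = 3.20e-04).

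PARP1, the sensor of DNA nicks, had the widest range of the 9, with the highest line 7.85-fold over the lowest. It stood at 21664 and 21651 in MCF10A, 12499 and 12095 in the HT-29-labelled libraries, and 2761 and 2756 in the MDA-MB-436-labelled libraries. The lines did not overlap, and the MDA-MB-436-labelled libraries stood apart at the low end. The coefficient of variation was 0.043% in MCF10A, where counting error was at least 0.476%. It was 0.114% in the MDA-MB-436-labelled libraries, where counting error was at least 1.49%. PARP1 fell by 2.97 on the log2 scale in them against MCF10A (SE 0.025, adjusted p = 5.21e-11), a larger change than that of 82.2% of all genes tested. The HT-29-labelled libraries were 4.46-fold above the MDA-MB-436-labelled libraries (log2 fold change 2.16, adjusted p = 1.95e-10) and 1.76-fold below MCF10A (-0.82, adjusted p = 2.92e-08). Both PARP1 calls held under all 18 alternative settings, from -3.07 to -2.97 against MCF10A and from 2.12 to 2.48 between the other groups.

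**Figure D1:**
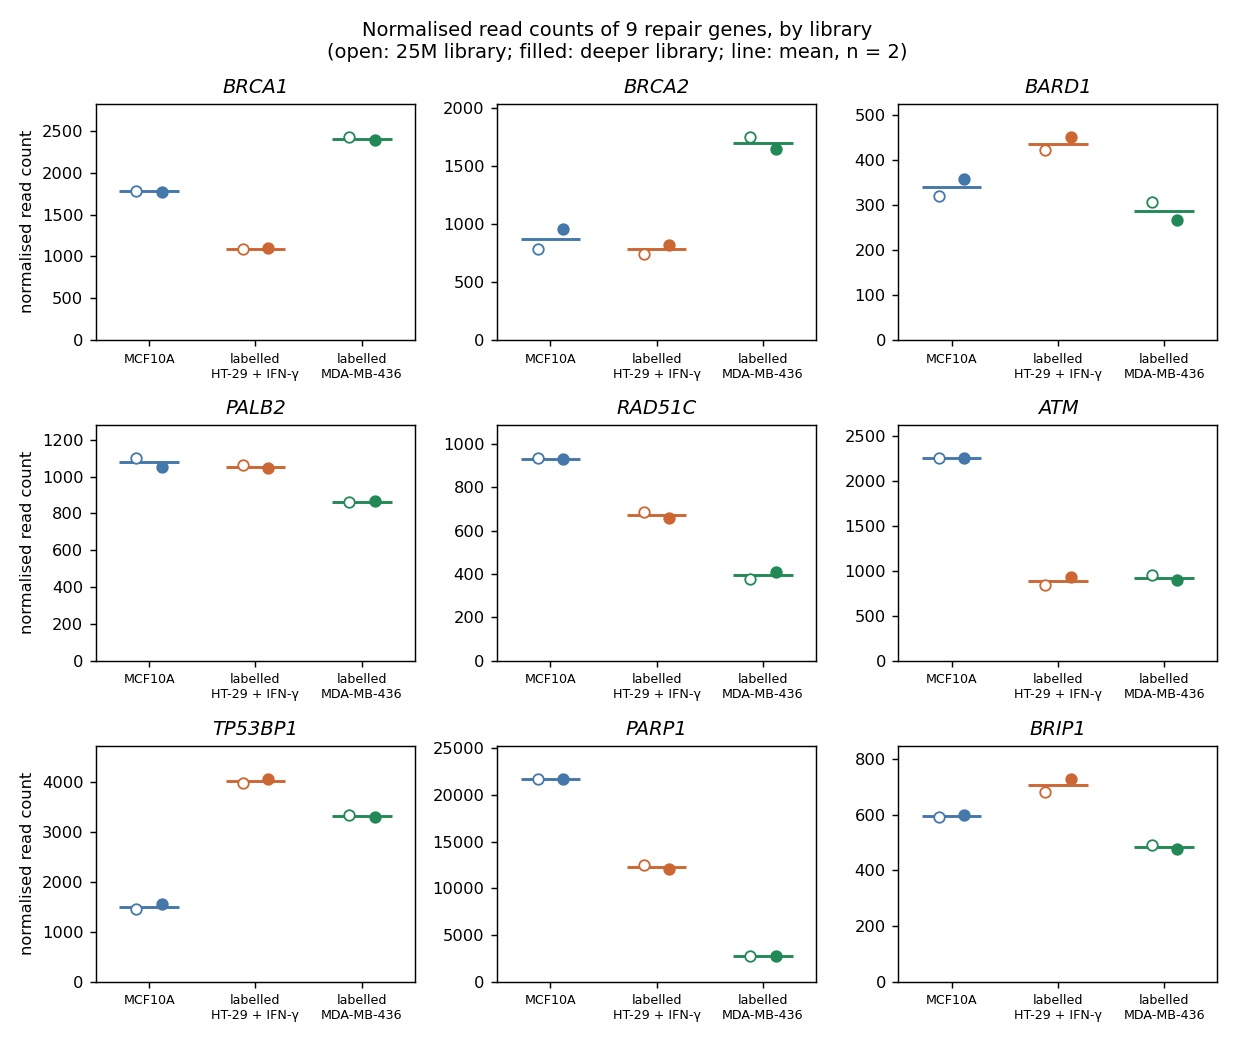
Normalised read count (vertical axes, each from 0) of the 9 genes in each of the 6 libraries, with open points for 25M libraries, filled points for deeper ones and lines for the mean of 2. PARP1 drops from about 21657 in MCF10A to 2758 in the MDA-MB-436-labelled libraries, while BRCA1 and BRCA2 are highest there at 2408 and 1699.

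In all, 4 of the 9 genes differed between the MDA-MB-436-labelled libraries and MCF10A, 1 higher (TP53BP1) and 3 lower (RAD51C, ATM and PARP1). Of all genes tested 49.2% differed, 25.6% higher and 23.7% lower, so the share of the 9 is near the background. A gene counted as different at an adjusted p below 0.05 with at least a 2-fold change. Between the HT-29-labelled libraries and MCF10A 2 differed, TP53BP1 higher and ATM lower, against 46.5% of all genes (28.4% higher and 18.1% lower). Between the HT-29-labelled and the MDA-MB-436-labelled libraries 3 differed, PARP1 higher and BRCA1 and BRCA2 lower, against 53.4% of all genes (29.9% higher and 23.5% lower). With scaling by library size alone 2 differed there, PARP1 and RAD51C, both higher. The lines' libraries did not overlap for 9, 7 and 8 of the 9 genes in these comparisons, where 90%, 92.6% and 93.6% of all genes did not. By adjusted p alone, 9, 7 and 8 of the 9 passed, against 84.3%, 85.5% and 87.8% of all genes. The median absolute log2 fold change of the 9 was 0.97, 0.47 and 0.60, and that of all genes 0.996, 0.92 and 1.11. The first 2 comparisons share the MCF10A libraries, and the same libraries recur in the third.

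**Figure D2:**
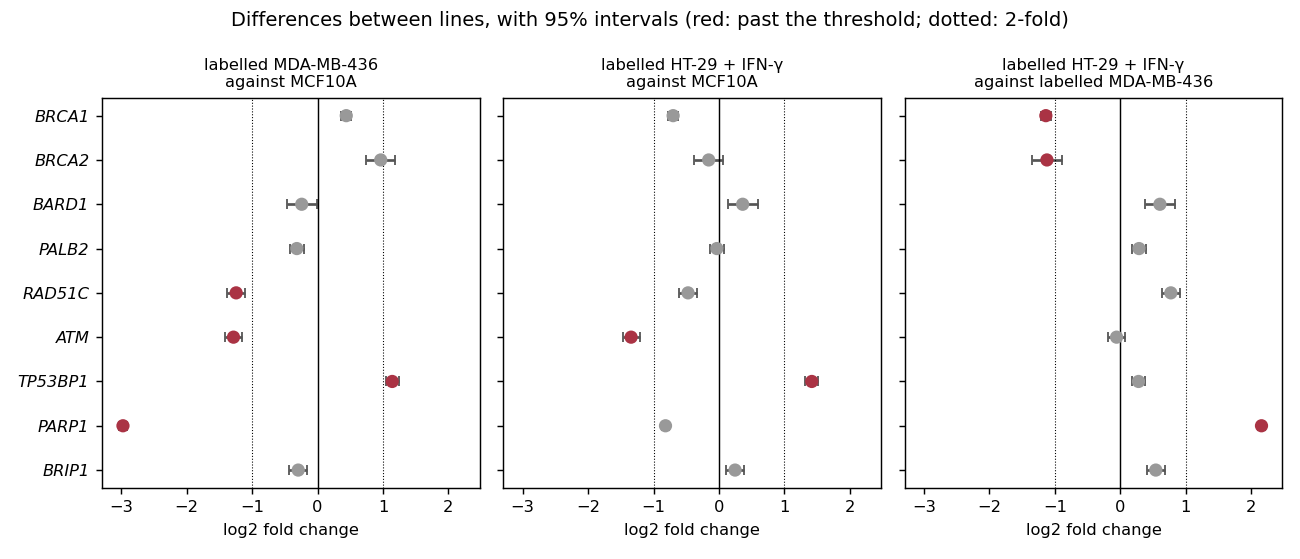
Log2 fold change (horizontal axis) of the 9 genes in the 3 comparisons, with 95% intervals from limma as bars, dotted lines at 2-fold and red points for genes past the threshold. PARP1 lies farthest from 0, at -2.97 in the first panel and 2.16 in the third, and TP53BP1 lies above 1 in the first and second.

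Fitted with the line as a block, none of the 9 genes passed between the deeper libraries and the 25M ones. Log2 differences ran from -0.03 to 0.12, the lowest unadjusted p was 0.138 in limma, and 0 of the 9 had an unadjusted p under 0.05. No gene of 15638 passed in that comparison (0%). The libraries of a line were still not alike for every gene. The sum of the basal markers KRT5, KRT14 and TP63 was higher in the 25M library of each line. With the 25M library first, it was 652506 and 638161 in MCF10A, 351.0 and 97.4 in the HT-29-labelled libraries, and 212.0 and 8.01 in the MDA-MB-436-labelled libraries.

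Because BRCA1 acts with partners, its reads were set against theirs within each library, where scaling between libraries plays no part. BRCA1 had 5.56 and 4.95 reads per BARD1 read in MCF10A, 2.58 and 2.43 in the HT-29-labelled libraries, and 7.90 and 8.95 in the MDA-MB-436-labelled libraries. The ratio was therefore lowest in the HT-29-labelled libraries and highest in the MDA-MB-436-labelled libraries, with no overlap. Against TP53BP1, its opponent at the break, BRCA1 had 1.23 and 1.13 reads per read in MCF10A, 0.273 and 0.270 in the HT-29-labelled libraries, and 0.726 and 0.724 in the MDA-MB-436-labelled libraries. Both groups labelled as carcinoma lines were thus below MCF10A. BRCA2 had 0.717 and 0.909 reads per PALB2 read in MCF10A and 0.695 and 0.788 in the HT-29-labelled libraries, which overlap, but 2.03 and 1.90 in the MDA-MB-436-labelled libraries. PARP1 had 12.2 and 12.2 reads per BRCA1 read in MCF10A, 11.5 and 11.0 in the HT-29-labelled libraries, and 1.14 and 1.15 in the MDA-MB-436-labelled libraries. These ratios are not corrected for gene length and were compared without a test.

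**Figure D3:**
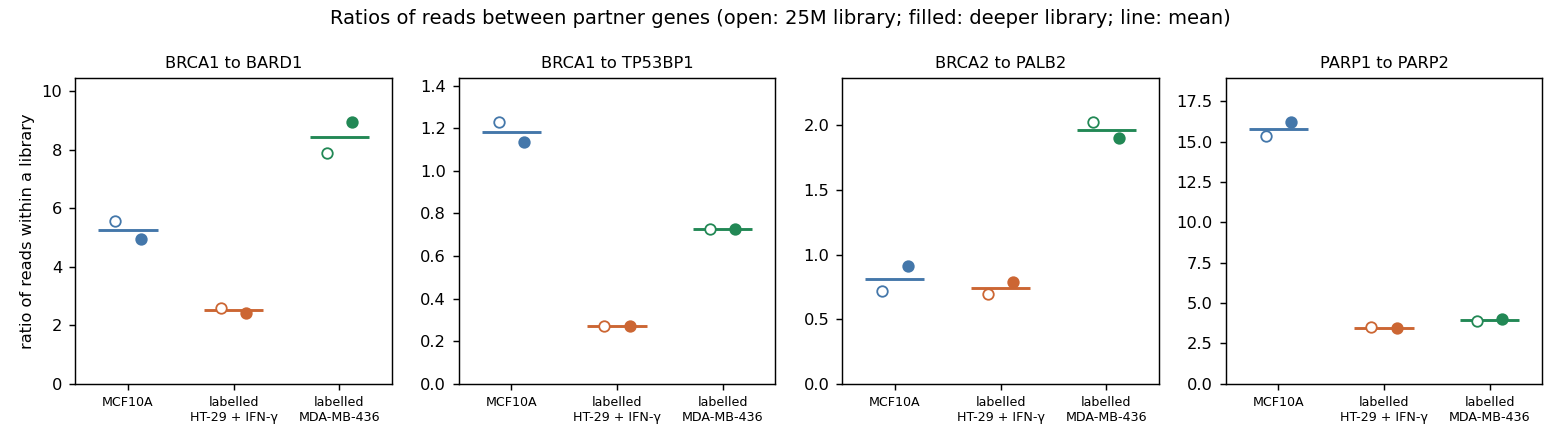
Ratio of reads within a library (vertical axes, each from 0) for 4 pairs of genes, with open points for 25M libraries, filled points for deeper ones and lines for the mean. BRCA1 to TP53BP1 falls from above 1 in MCF10A to 0.27 in the HT-29-labelled libraries, and PARP1 to PARP2 from above 15 in MCF10A to at most 4.03 in the other libraries.

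Per kilobase of transcript, taking for each gene the GENCODE transcript with the longest coding part, PARP1 was the most abundant of the 9 in every line. Its level was 5472 ± 2.34 normalised counts per kilobase in MCF10A, 3107 ± 72.2 in the HT-29-labelled libraries and 696.9 ± 0.796 in the MDA-MB-436-labelled libraries. In MCF10A the order of levels per kilobase was then RAD51C (359.6 ± 0.461), PALB2 (269.0 ± 7.97), BRCA1 (244.3 ± 0.546), ATM (171.5 ± 0.047), TP53BP1 (145.1 ± 8.01), BRIP1 (98.2 ± 0.950), BRCA2 (72.8 ± 10.0) and BARD1 (61.7 ± 4.91). The SD ranges of BRCA2 and BARD1 overlapped there. In the HT-29-labelled libraries TP53BP1 was second at 387.6 ± 4.46, PALB2 (263.1 ± 3.19) and RAD51C (259.1 ± 7.75) lay within their spread, and BRCA2 was last at 65.1 ± 5.01, beside ATM at 67.7 ± 4.53. In the MDA-MB-436-labelled libraries BRCA1 was second at 331.2 ± 2.94, TP53BP1 next at 319.8 ± 2.45, and BARD1 last at 52.2 ± 5.07. Levels per kilobase depend on which transcripts the lines use, which gene counts do not show.

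The 2 neighbours of BRCA1 in the tables were, like it, highest in the MDA-MB-436-labelled libraries. NBR2, a non-coding gene whose start lies 193 bases from that of BRCA1 on the other strand, stood at 61.8 and 79.5 in MCF10A, 78.0 and 75.0 in the HT-29-labelled libraries, and 403.5 and 381.2 in the MDA-MB-436-labelled libraries. NBR2 rose by 2.47 on the log2 scale in the MDA-MB-436-labelled libraries against MCF10A (adjusted p = 1.24e-06), while MCF10A and the HT-29-labelled libraries overlapped (log2 difference 0.12, adjusted p = 0.459). NBR1, an autophagy receptor gene with a start 82 bases from the distal BRCA1 start, stood at 4243 and 4344, 2297 and 2370, and 6818 and 6862 in the same order. The window before that distal start is chr17:43170328-43170577, so NBR1 does not begin within 1000 bases of the BRCA1 window shown above. NBR1 had the order of BRCA1 in all 3 lines, with a log2 fold change of -1.55 between the HT-29-labelled and the MDA-MB-436-labelled libraries (adjusted p = 1.73e-09), and both differences from MCF10A were under 2-fold (-0.88 and 0.67). With no strand setting stated for the counting, reads of overlapping genes, and of the partial BRCA1 pseudogene known to lie near NBR1, cannot be told apart from those of BRCA1.

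**Figure D4:**
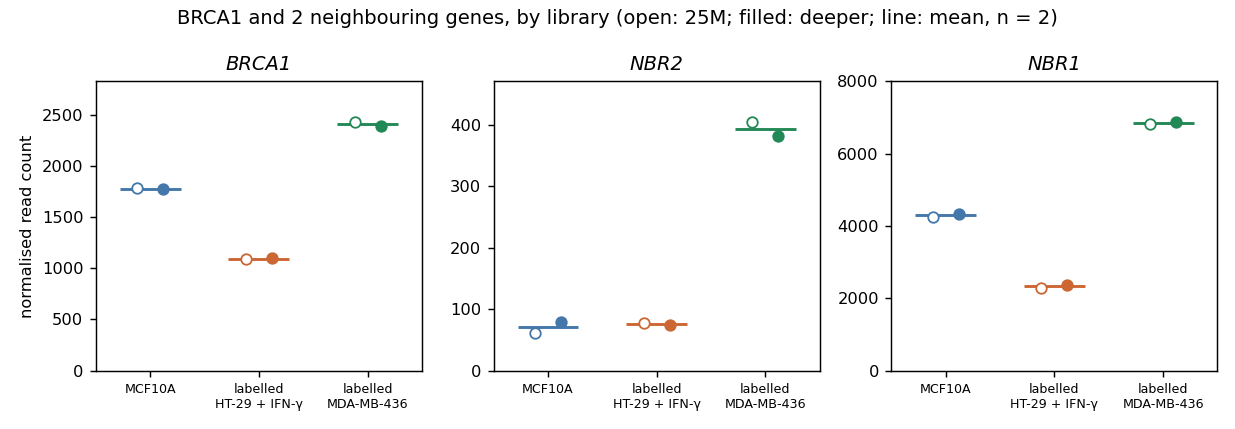
Normalised read count (vertical axes, each from 0) of BRCA1, NBR2 and NBR1 in the 6 libraries, with open points for 25M libraries, filled points for deeper ones and lines for the mean of 2. All 3 genes are highest in the MDA-MB-436-labelled libraries, and BRCA1 and NBR1 are lowest in the HT-29-labelled libraries.

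Other genes with a start within 1000 bases of a member did not all follow it. NPAT, a histone gene regulator whose start lies 429 bases from that of ATM, stood at 968.1 and 999.1 in MCF10A, 882.1 and 878.2 in the HT-29-labelled libraries, and 1509 and 1396 in the MDA-MB-436-labelled libraries, where ATM had fallen and NPAT had a log2 fold change of 0.56 against MCF10A (adjusted p = 1.44e-05). DCTN5, a dynactin subunit gene 156 bases from PALB2, stayed under 2-fold in every comparison, as PALB2 did. MAP1A, a microtubule-associated protein gene 314 bases from TP53BP1, rose with it in the HT-29-labelled libraries, at 414.0 and 368.2 against 18.7 and 26.5 in MCF10A (log2 fold change 4.07, adjusted p = 3.03e-06), but stood at 12.4 and 20.3 in the MDA-MB-436-labelled libraries. MAP1A was found by this distance and was on no list. ZAR1L, 145 bases from BRCA2, was listed at 0 to 1.47 and was not tested. Of the listed neighbours farther off, TUBGCP4, beside TP53BP1, fell in both groups against MCF10A (log2 fold changes -1.26 in the HT-29-labelled libraries and -1.22 in the MDA-MB-436-labelled libraries), the first of which was -0.95 with scaling by library size alone. TEX14, beside RAD51C, had at most 17.5 normalised counts in any library.

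Genes whose profile was most like that of BRCA1 over the 6 libraries were ATAD1, RPL22, GSPT1, RPN2 and SAP18. They had the smallest root mean square distance between centred log2 profiles, from 0.017 to 0.027, among 11938 genes with a mean normalised count of at least 100. ATAD1, for one, averaged 2894 ± 14.3, 1785 ± 25.3 and 3997 ± 23.9 in MCF10A and the HT-29-labelled and the MDA-MB-436-labelled libraries. Among the other 8 repair genes BRCA2 came nearest, at a distance of 0.27 and rank 1103, and PARP1 was farthest, at 1.58. With 3 lines, many genes share any one order of levels.

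Beyond the 9, 94 genes of the pathway were on 9 lists, of which 92 were tested. In the MDA-MB-436-labelled libraries 12 of the 92 rose and 20 fell against MCF10A, with a median log2 fold change of -0.20 against 0.00 for all genes. In the HT-29-labelled libraries 17 rose and 12 fell, with a median of 0.15 against 0.13 for all genes. TMM scaling gave 13 and 17 there, and library size alone 24 and 8. Between the 2 groups 24 were higher and 16 lower in the HT-29-labelled libraries, with a median of 0.22 against 0.09. Library size alone gave 35 and 14 between them. The share that differed was 34.8%, 31.5% and 43.5% in these comparisons, against 49.2%, 46.5% and 53.4% of all genes.

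Fanconi anaemia genes, which act with BRCA1 and BRCA2 at crosslinks, gave calls in 1 direction only within each comparison. Of 14 tested, 0 rose and 5 fell in the MDA-MB-436-labelled libraries against MCF10A, 3 rose and 0 fell in the HT-29-labelled libraries, and 7 were higher and 0 lower in the HT-29-labelled libraries than in the MDA-MB-436-labelled libraries (median log2 fold changes -0.75, 0.34 and 1.03). Of all genes 25.6% rose and 23.7% fell, 28.4% rose and 18.1% fell, and 29.9% were higher and 23.5% lower in these comparisons. With TMM scaling the count of 3 was 1. FANCD2, the ubiquitinated core of the pathway, averaged 1558 ± 24.3 in MCF10A, 4566 ± 114 in the HT-29-labelled libraries and 620.3 ± 59.1 in the MDA-MB-436-labelled libraries (log2 fold change 2.88 between the latter, adjusted p = 3.57e-09). FANCM, a DNA translocase, fell by 2.02 on the log2 scale in the MDA-MB-436-labelled libraries against MCF10A, FANCB, a core complex subunit, by 1.97, and UBE2T, the E2 enzyme for FANCD2, by 1.93.

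Core recombination genes varied widely. RAD51B, which joins RAD51C in a complex, stood at 215.3 and 203.7 in MCF10A, 0 and 0 in the HT-29-labelled libraries, and 88.5 and 96.7 in the MDA-MB-436-labelled libraries. With 0 reads against 530 in MCF10A, RAD51B was at least 171.4-fold lower in the HT-29-labelled libraries, taking 3 reads over the group as the floor, which covers counting error only. Of the 14 genes on this list 1 rose and 4 fell in the MDA-MB-436-labelled libraries, and 4 rose and 1 fell in the HT-29-labelled libraries, against MCF10A. Between these groups 5 were higher and 2 lower in the HT-29-labelled libraries. The shares of all genes, higher and lower, were 25.6% and 23.7%, 28.4% and 18.1%, and 29.9% and 23.5% in these 3 comparisons. RAD51AP1, which promotes strand pairing, averaged 3653 ± 32.3 in the HT-29-labelled libraries against 877.3 ± 1.38 in MCF10A (log2 fold change 2.06, adjusted p = 3.01e-09). DMC1, the meiotic recombinase, had few reads, at 97.4 ± 8.58 in the HT-29-labelled libraries, 20.1 ± 3.39 in MCF10A and 0.616 ± 0.871 in the MDA-MB-436-labelled libraries, and its rise in the HT-29-labelled libraries was not called with a pseudocount of 0.1. SWI5, a recombination accessory factor, differed in all 3 comparisons, but its value of 1.03 between the HT-29-labelled and the MDA-MB-436-labelled libraries fell under the threshold in 5 of 18 settings, without the 25M library labelled HT-29 among them (0.99).

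End resection and RPA genes had 1 higher and 5 lower of 14 in the MDA-MB-436-labelled libraries and 1 higher and 4 lower in the HT-29-labelled libraries, against MCF10A. Library size alone gave 3 and 3 for the latter. Between these groups 4 were higher and 1 lower in the HT-29-labelled libraries. All genes gave 25.6% higher and 23.7% lower, 28.4% and 18.1%, and 29.9% and 23.5% in these 3 comparisons in turn. WRN, the Werner helicase, fell in both (log2 fold changes -2.41 and -2.11 for the MDA-MB-436-labelled and the HT-29-labelled libraries), and MRE11A, the nuclease that starts trimming, fell by 1.20 and 1.86. NBN, the MRE11 partner that activates ATM, averaged 4463 ± 3.73 in MCF10A, 1579 ± 52.9 in the HT-29-labelled libraries and 6995 ± 289 in the MDA-MB-436-labelled libraries. RPA3, a subunit of the single-strand binding complex, averaged 1576 ± 25.3, 3005 ± 33.9 and 744.9 ± 51.9 in the same order.

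The BRCA1-A complex and chromatin signalling list had 0 higher and 2 lower of 10 in each group against MCF10A and 1 higher and 1 lower between the 2 groups. Library size alone gave 1 and 1 for the HT-29-labelled libraries against MCF10A, and 3 higher and 1 lower between the 2 groups. Against MCF10A 25.6% of all genes were higher and 23.7% lower in the MDA-MB-436-labelled libraries, and 28.4% and 18.1% in the HT-29-labelled libraries. Between the 2 groups 29.9% were higher and 23.5% lower in the HT-29-labelled libraries. BABAM1, a BRCA1-A subunit, fell by 1.75 in the MDA-MB-436-labelled libraries. H2AFX, the histone that ATM phosphorylates at breaks, averaged 1453 ± 58.1 in the HT-29-labelled libraries against 4785 ± 22.4 in MCF10A. RNF8, the ubiquitin ligase that recruits BRCA1 and TP53BP1, fell by 1.50 in the MDA-MB-436-labelled libraries and by 1.24 in the HT-29-labelled libraries, the latter 0.93 with library size alone. Of 6 effectors of TP53BP1, 1 rose in the MDA-MB-436-labelled libraries and 1 fell in the HT-29-labelled libraries, against MCF10A. DCLRE1C, the Artemis nuclease, averaged 1719 ± 2.78 in the MDA-MB-436-labelled libraries against 423.2 ± 13.2 in MCF10A and 429.1 ± 14.8 in the HT-29-labelled libraries, and was thus the 1 of 6 that was lower between the 2 groups. With library size alone 2 of the 6 were higher and 1 lower between them. C20orf196, a shieldin subunit, stood at a log2 fold change of -1.18 in the HT-29-labelled libraries, but of -0.87 with library size alone, which left 0 of the 6 lower, and of -0.99 without their 25M library.

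Checkpoint genes had 0 higher and 1 lower of 10 in the MDA-MB-436-labelled libraries, 3 higher and 2 lower in the HT-29-labelled libraries, and 4 higher and 1 lower between these groups. TMM scaling gave 2 and 4 for the HT-29-labelled libraries against MCF10A. All genes gave 25.6% higher and 23.7% lower, 28.4% and 18.1%, and 29.9% and 23.5% in these comparisons. The 3 higher and 2 lower of 10 in the HT-29-labelled libraries are thus near the background. CLSPN, which encodes claspin, averaged 3119 ± 34.9 in the HT-29-labelled libraries against 976.6 ± 30.5 in MCF10A and 566.1 ± 17.5 in the MDA-MB-436-labelled libraries. ATRIP, the partner of ATR, fell by 2.12 in the MDA-MB-436-labelled libraries. RAD1 and RAD9A, 2 clamp subunits, rose by 1.91 and 1.09 in the HT-29-labelled libraries, RAD9A only by 0.95 with TMM scaling. Resolvase genes, which cut joined DNA molecules apart, had 4 members tested, while SLX1A and SLX1B were below the filter. EME2 and MUS81, nuclease subunits, rose by 2.33 and 1.50 in the MDA-MB-436-labelled libraries, and EME1, the other partner of MUS81, fell by 1.46. Against MCF10A 0 of the 4 passed for the HT-29-labelled libraries in limma, edgeR or DESeq2, all of them staying under 2-fold. All 4 had an adjusted p under 0.05 in limma, where only the 2-fold minimum left them uncalled. Between the groups EME1 was higher and EME2 lower in the HT-29-labelled libraries.

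End joining genes, the alternative to recombination, were lower in the HT-29-labelled libraries in 4 of 9 cases against the MDA-MB-436-labelled libraries and higher in 0. Of all genes 23.5% were lower and 29.9% higher in that comparison. Library size alone gave 3 lower and 1 higher. Against MCF10A 1 rose and 2 fell in the HT-29-labelled libraries, where 28.4% of all genes rose and 18.1% fell. In the MDA-MB-436-labelled libraries 1 rose and 1 fell, against 25.6% and 23.7% of all genes. LIG3, a ligase of the alternative route, averaged 633.5 ± 9.92 in the HT-29-labelled libraries, 1975 ± 69.1 in MCF10A and 1925 ± 32.0 in the MDA-MB-436-labelled libraries. NHEJ1, an end joining cofactor, averaged 1611 ± 23.9 in the MDA-MB-436-labelled libraries against 483.7 ± 77.6 in MCF10A. XRCC4 and LIG4, which form the ligase of the main route, had log2 fold changes of -1.44 and -1.13 in the HT-29-labelled libraries against the MDA-MB-436-labelled libraries, LIG4 only -0.80 with library size alone. Against MCF10A XRCC4 fell by 1.11 in the HT-29-labelled libraries, a call that ended with library size alone (-0.80), without the deeper MCF10A library (-0.98) and at equal depth (-0.99).

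Other PARP genes were mixed beside PARP1. Of 11, 6 rose and 1, TNKS, fell in the MDA-MB-436-labelled libraries against MCF10A, where PARP1 had fallen, and 25.6% of all genes rose and 23.7% fell there. The value of TNKS (-1.03) was under the threshold without the deeper MCF10A library (-0.99) or the deeper MDA-MB-436-labelled one (-0.92). In the HT-29-labelled libraries 5 rose and 0 fell against MCF10A, where 28.4% of all genes rose and 18.1% fell. Between the groups 2 were higher and 5 lower in the HT-29-labelled libraries, against 29.9% and 23.5% of all genes. PARP14 averaged 61253 ± 1653 in the MDA-MB-436-labelled libraries, 5614 ± 192 in the HT-29-labelled libraries and 1040 ± 57.0 in MCF10A, PARP9 20019.9 ± 332, 4179 ± 38.1 and 647.8 ± 2.47, and PARP12 8019 ± 167, 1784 ± 44.4 and 1047 ± 21.0. PARP10 averaged 5929 ± 119.5 in the HT-29-labelled libraries, 3880 ± 53.4 in the MDA-MB-436-labelled libraries and 442.6 ± 1.72 in MCF10A. These 4 are known interferon-inducible genes, and the IFN-γ response sums given above were highest in the MDA-MB-436-labelled libraries, as were PARP14, PARP9 and PARP12 but not PARP10. The part of the interferon response in these values was not tested. TNKS, which encodes tankyrase, and PARP2, the nearest relative of PARP1, were like PARP1 higher in the HT-29-labelled than in the MDA-MB-436-labelled libraries (log2 fold changes 1.44 and 2.34). PARP2 averaged 1373 ± 54.5 in MCF10A, 3536 ± 14.3 in the HT-29-labelled libraries and 695.9 ± 17.3 in the MDA-MB-436-labelled libraries. PARP1 had 15.3 and 16.2 reads per PARP2 read in MCF10A, 3.52 and 3.43 in the HT-29-labelled libraries, and 3.90 and 4.03 in the MDA-MB-436-labelled libraries.

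**Figure D5:**
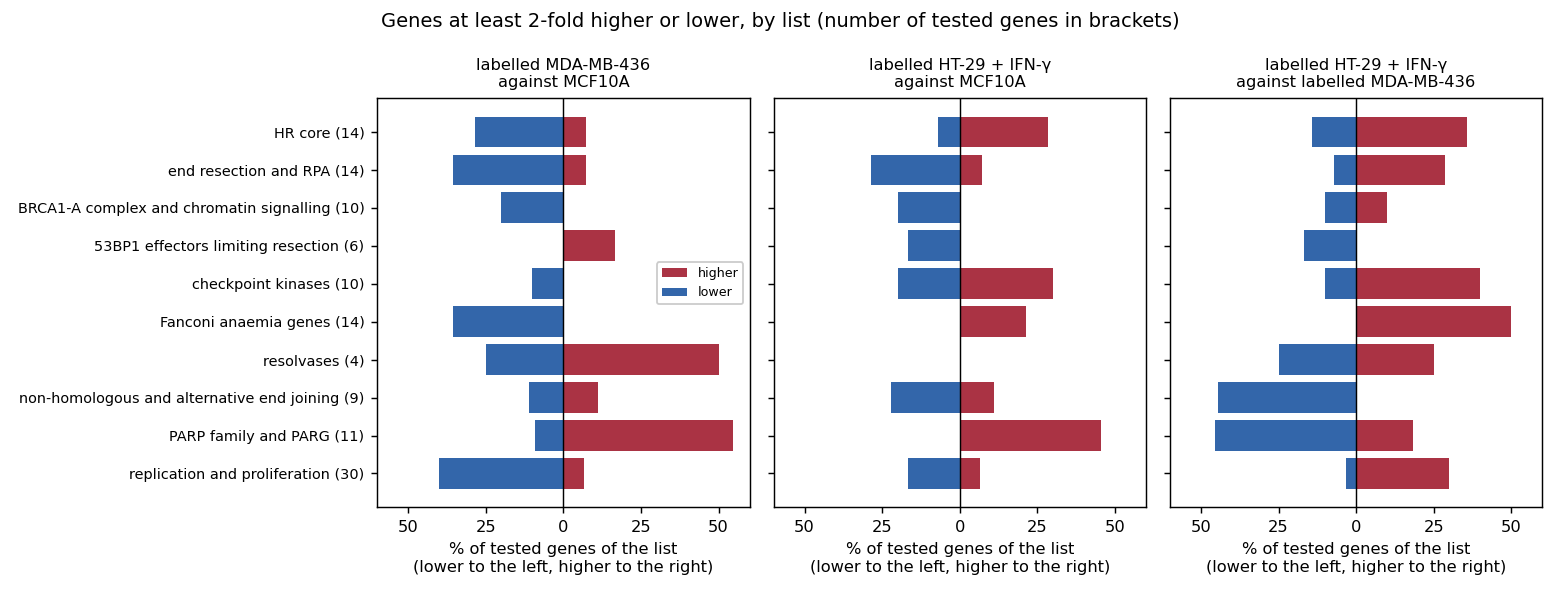
Percent of the tested genes of each list (horizontal axis, lower genes to the left and higher genes to the right of 0) that differed at least 2-fold in the 3 comparisons, with the number tested in brackets. Fanconi anaemia genes have bars to the left only in the first panel (5 of 14) and to the right only in the third (7 of 14), and PARP family genes reach farthest to the right in the first (6 of 11).

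Many repair genes are made mainly in dividing cells, so replication and proliferation genes were read beside them. The summed level of 30 such genes was 188313 and 188392 in MCF10A, 152967 and 152239 in the HT-29-labelled libraries, and 115941 and 116476 in the MDA-MB-436-labelled libraries, with none of the 30 at 0 in any line. Of the 30, 2 rose and 12 fell in the MDA-MB-436-labelled libraries and 2 rose and 5 fell in the HT-29-labelled libraries, against MCF10A. Of all genes 25.6% rose and 23.7% fell in the first of these comparisons and 28.4% rose and 18.1% fell in the second, so the 5 of 30 are near the background. Library size alone gave 4 and 1 for the second. Between these groups 9 were higher and 1 was lower in the HT-29-labelled libraries. With 29.9% of all genes higher and 23.5% lower there, the 9 of 30 are near the background and the 1 is below it. Library size alone gave 13 higher and 0 lower there, a scaling that also shifted the median of all genes by 0.34. CDC20, an activator of the anaphase-promoting complex, averaged 11783 ± 82.9, 7774 ± 288 and 2696 ± 53.5 in MCF10A and the HT-29-labelled and the MDA-MB-436-labelled libraries. CCNE1 and CCNE2, the E cyclins, and E2F2, an activating E2F, fell by 1.89, 1.80 and 1.46 in the MDA-MB-436-labelled libraries. Others on the list did not fall there. MKI67 averaged 14490 ± 20.8 in MCF10A, 6035 ± 36.1 in the HT-29-labelled libraries and 14873 ± 94.6 in the MDA-MB-436-labelled libraries. CDC6 and E2F8, the 2 that rose in the MDA-MB-436-labelled libraries against MCF10A, had log2 fold changes of 1.03 and 1.15. PARP1, RAD51C, BARD1, PALB2 and BRIP1 were thus lowest in the libraries with the lowest sum, as was FANCD2. BRCA1 and BRCA2 were highest there, and ATM and TP53BP1 had means between those of the other groups. The part of proliferation in these differences was not tested, and in bulk RNA fewer cells making a message and less message per cell cannot be told apart.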

How the data were processed

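RNA from 3 lines was sequenced in 2 libraries each (16.7 to 69.5M reads, the deeper MCF10A library being labelled both 100M and 50). The submitters' processing notes name FastQC, STAR 2.2.0, HTSeq and hg19, and no strand setting is given in the sources used here. The deposited normalised counts are a signal that the authors scaled by 1 factor per library, and every value came out as whole reads within 0.001. RPKM values, also deposited, did not match the counts row by row (1598 rows were at 0 in only 1 of the 2 columns) and were not used for results. Of 23368 rows, 28 with names read as dates were dropped.

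Differences came from limma 3.58.1 (R 4.3.3), trended and robust, on log2(normalised count + 1) over all 6 libraries, which leaves 3 residual degrees of freedom. Genes needed a normalised count of 10 in at least 2 libraries, p-values were adjusted by Benjamini-Hochberg over 15638 genes, and a difference needed an adjusted p below 0.05 and 2-fold. A log2 fold change on this scale understates the change of low genes. Counts were also simulated with 1 mean per gene over the 6 libraries and a dispersion set at 0.003. All 67 genes changed 3-fold were then called in each of the 3 comparisons. Of 67 changed 1.5-fold 1, 0 and 0 were called, an outcome that the 2-fold minimum largely fixes. Few genes changed in the simulation, while 46.5% to 53.4% differed in the data, so it does not show how calls behave here. The members, lists and alternatives were chosen with earlier results of these data known. In the gene lists, up to 4 genes per list were named by rule, those called in the most comparisons and then with the largest change. A few others, such as PARP2, TNKS, MKI67, CDC6 and E2F8, were named outside this rule. Alternatives were other scalings, pseudocounts and filters, edgeR 4.0.16, DESeq2 1.42.0, limma-voom, a depth term, the lines compared alone, each library left out, and equal depth. The added alternative without a fold minimum was chosen after seeing the data. Promoter words were searched in the 250 bases before RefSeq starts, and gene lengths came from GENCODE. Some items withheld from this text are not reported here.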

Additional observations from a re-analysis of the deposited data

How the results depend on the processing

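Most values kept their direction and their side of the threshold in the 18 alternatives (476 values, against 10 that did not), and the cause of the exceptions was not tested beyond the setting itself. Scaling by library size alone shifted the median of all genes by 0.31 and 0.34 on the log2 scale in the 2 comparisons of the HT-29-labelled libraries, against MCF10A and against the MDA-MB-436-labelled libraries. It turned BRCA2 (0.15) and PALB2 (0.28) against MCF10A and ATM (0.27) against the MDA-MB-436-labelled libraries. The ATM value also turned without the 25M library labelled HT-29 (0.0099) and at equal depth (0.0066), and leaving out 1 library gave -0.13 to 0.0099. With the adjusted p alone and no fold minimum, added after seeing the data, 9, 7 and 8 of the 9 genes passed, where 4, 2 and 3 had, and 13184, 13370 and 13736 of all genes, where 7701, 7265 and 8350 had. Leaving out 1 library gave 4 to 5, 2 and 3 of the 9. Lists of 4 to 14 genes hold few calls, and a change of 1 or 2 calls between scalings moves their counts by over 1.5 times: with TMM scaling 0 end joining genes rose and 4 fell in the HT-29-labelled libraries against MCF10A. BARD1 is limited by its depth, from 149 reads.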
